A study of Mus musculus with 9 samples.

Results

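The HOX genes are the clustered homeobox genes of the mouse, and the members described here are all rows of the array table whose single gene symbol is that of a HOX gene of cluster A, B, C or D. These rules found 37 of the 39 HOX genes listed in RefSeq, among 19938 genes measured, with 1 probe set each. The clusters gave 10 HoxA, 9 HoxB, 9 HoxC and 9 HoxD genes. Hoxb8 shared its row with Hoxb7 and is therefore no member.

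Gene expression was read on 9 Affymetrix Mouse Gene 1.0 ST arrays of immortalized mouse embryonic fibroblasts of ICR background. All cells were infected for 2 h with adenovirus (1e8 pfu per ml) that encodes a short hairpin RNA, called shRNA, and then grown on for 70 h at 37 °C with 10% serum. In 3 arrays the hairpin had a scrambled sequence (the control), in 3 it was directed at HSF1 and in 3 at RPA1. The control cells therefore carried the virus and a hairpin too, and no array holds uninfected cells. HSF1 is the heat shock transcription factor, RPA1 the large subunit of the complex that binds single-stranded DNA, and the study asked whether the complex of both controls gene expression. Whether replicate arrays stem from separate cultures is not given in the labels, so the p-values measure the spread between these arrays, which may be technical.

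HOX genes encode homeodomain transcription factors that give cells their position along the body axis. They lie in 4 clusters in the order in which they are switched on, so that low-numbered genes mark anterior and high-numbered genes posterior positions, and genes of the same number in different clusters (a paralogue group) are the most alike. Fibroblasts keep the HOX pattern of the site they were taken from through culture, held by Polycomb and trithorax chromatin proteins, and the proteins bind DNA together with the TALE cofactors of the PBX, MEIS and PREP families.

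The deposited values are log2 signals, so a difference of 1 is a factor of 2. Rpa1 read 11.40, 11.42 and 11.41 in the control arrays and 9.42, 9.34 and 9.40 in the RPA1 shRNA arrays, a fall of 4.05-fold (limma adjusted p = 3.5e-08), and the Hsf1 transcript was not analysed here. Of 12 fibroblast markers 9 had control means above the median gene (8.37), among them Fn1, Vim, Dcn and Col1a1, while Lum, Fap and Thy1 did not. Of the 7 epithelial markers 1 lay above that median, of the 6 muscle markers 1, of the 7 neural markers 3, and of the 6 endothelial and 6 blood markers none. In the RPA1 shRNA group array 3 lay closer to the control than arrays 1 and 2. Among 408 genes that both other arrays put 2-fold or more away from the control mean, array 3 showed 0.685 times their difference (median), where arrays 1 and 2 gave 1.07 and 1.04 when measured in this way.

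Where the promoters of the genes that fell or rose most under RPA1 shRNA are held in the RefSeq table, they are shown first, as the 250 bases before a transcript start listed there. For Hoxd10 that start lies inside the gene model of RefSeq, which begins farther upstream, and for the other 3 genes it is the start of the gene model. For both directions these are the 2 called genes with the largest difference among the members with an entry, Hoxa2 and Hoxa3 (lower) and Hoxd10 and Hoxd8 (higher). The sequences are from RefSeq, build GRCm38.p6, 5′ to 3′ on the gene's strand, and capitals mark any match, on either strand, to the motifs GAANNTTC and TTCNNGAA (paired units of the heat shock element that HSF1 binds), TGATTNAT (a HOX-PBX site), CCAAT (the CCAAT box) or TATAAA (the TATA box).
Hoxa2, minus strand, chr6:52164832-52165081: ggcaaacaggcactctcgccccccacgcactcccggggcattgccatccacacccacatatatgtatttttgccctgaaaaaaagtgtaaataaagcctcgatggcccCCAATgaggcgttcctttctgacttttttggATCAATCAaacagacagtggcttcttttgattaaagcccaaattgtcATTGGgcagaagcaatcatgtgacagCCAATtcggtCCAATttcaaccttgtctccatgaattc
Hoxa3, minus strand, chr6:52213068-52213317: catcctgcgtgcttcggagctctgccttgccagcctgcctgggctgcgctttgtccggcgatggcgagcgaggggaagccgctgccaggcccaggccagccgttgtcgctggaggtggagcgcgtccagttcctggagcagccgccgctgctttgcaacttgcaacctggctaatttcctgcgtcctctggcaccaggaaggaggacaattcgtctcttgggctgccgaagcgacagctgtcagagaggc
Hoxd10, plus strand, chr2:74691641-74691890: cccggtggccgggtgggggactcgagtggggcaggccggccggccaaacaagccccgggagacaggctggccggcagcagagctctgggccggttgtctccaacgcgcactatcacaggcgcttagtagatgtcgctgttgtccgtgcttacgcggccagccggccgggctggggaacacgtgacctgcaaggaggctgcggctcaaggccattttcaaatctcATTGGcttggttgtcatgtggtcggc
Hoxd8, plus strand, chr2:74704365-74704614: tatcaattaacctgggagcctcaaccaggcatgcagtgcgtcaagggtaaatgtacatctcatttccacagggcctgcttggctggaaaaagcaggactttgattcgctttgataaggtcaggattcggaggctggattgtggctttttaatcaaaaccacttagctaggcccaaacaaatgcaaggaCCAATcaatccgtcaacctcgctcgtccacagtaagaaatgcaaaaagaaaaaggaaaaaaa
The Hoxa2 window held a HOX-PBX match on the strand opposite to the gene and 4 CCAAT boxes, the Hoxd10 and Hoxd8 windows 1 CCAAT box each, and the Hoxa3 window none of the 5 motifs. Of the measured HOX genes 21 had an entry, 6 of the 12 that fell and 2 of the 6 that rose under RPA1 shRNA. None of these 8 held either heat shock pair, which stood in 6.69% (GAANNTTC) and 7.17% (TTCNNGAA) of all 32851 windows of this length in the table. The HOX-PBX site stood in 2.82% of all windows and in Hoxa2 alone of the 8. The CCAAT box stood in 33.85% of all windows, in 2 of the 6 that fell (Hoxa2 and Hoxa10) and in both that rose. The TATA box stood in 12.37% of all windows and in Hoxa10 of the 8. Among the 13 HOX genes with an entry that were not called, 9 held the CCAAT box and 2 the TATA box (Hoxd4 and Hoxd13). Hoxd11 of these 13 held the HOX-PBX site and Hoxb4 the pair TTCNNGAA. A HOX gene was counted if any of its windows matched, while the shares of all are per window.

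In the control arrays the fibroblasts showed signal from 3 of the clusters well above that of the fourth. The 9 HoxC genes had control means from 8.03 (Hoxc11) to 11.58 (Hoxc8) with a median of 9.07, the 9 HoxB genes from 8.14 (Hoxb1) to 10.68 (Hoxb9) with a median of 8.90, and the 10 HoxA genes from 6.59 (Hoxa11) to 9.40 (Hoxa7) with a median of 8.60. The 9 HoxD genes lay between 6.48 (Hoxd4) and 7.47 (Hoxd11), all below the median gene. In all 22 of the 37 lay above the median gene, 7 of 10 in HoxA, 8 of 9 in HoxB and 7 of 9 in HoxC. The signal of a probe set also depends on its probes and background was not measured, so these levels describe the rows and do not rank the transcripts. The SD over the 3 control arrays ran from 0.00 to 0.19.

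By position, 3 of 7 anterior genes (paralogue groups 1 to 3), 11 of 14 central genes (4 to 8) and 8 of 16 posterior genes (9 to 13) lay above the median gene. The probe set signals of paralogues of the same number differed widely between clusters, though such signals also depend on the probes. In group 8 Hoxc8, which patterns thoracic vertebrae and brachial motor neurons, read 11.62, 11.63 and 11.49 in the control arrays and Hoxd8 read 6.69, 6.63 and 6.45. In group 9 the control means ran from 7.35 (Hoxd9) to 10.68 (Hoxb9), and in group 12 from 6.85 (Hoxd12) to 11.28 (Hoxc12). Hoxa11 and Hoxa13, known for the forearm and the digits, had means of 6.59 and 6.85, while Hoxa2 to Hoxa10 lay between 7.89 and 9.40.

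**Figure D1:**
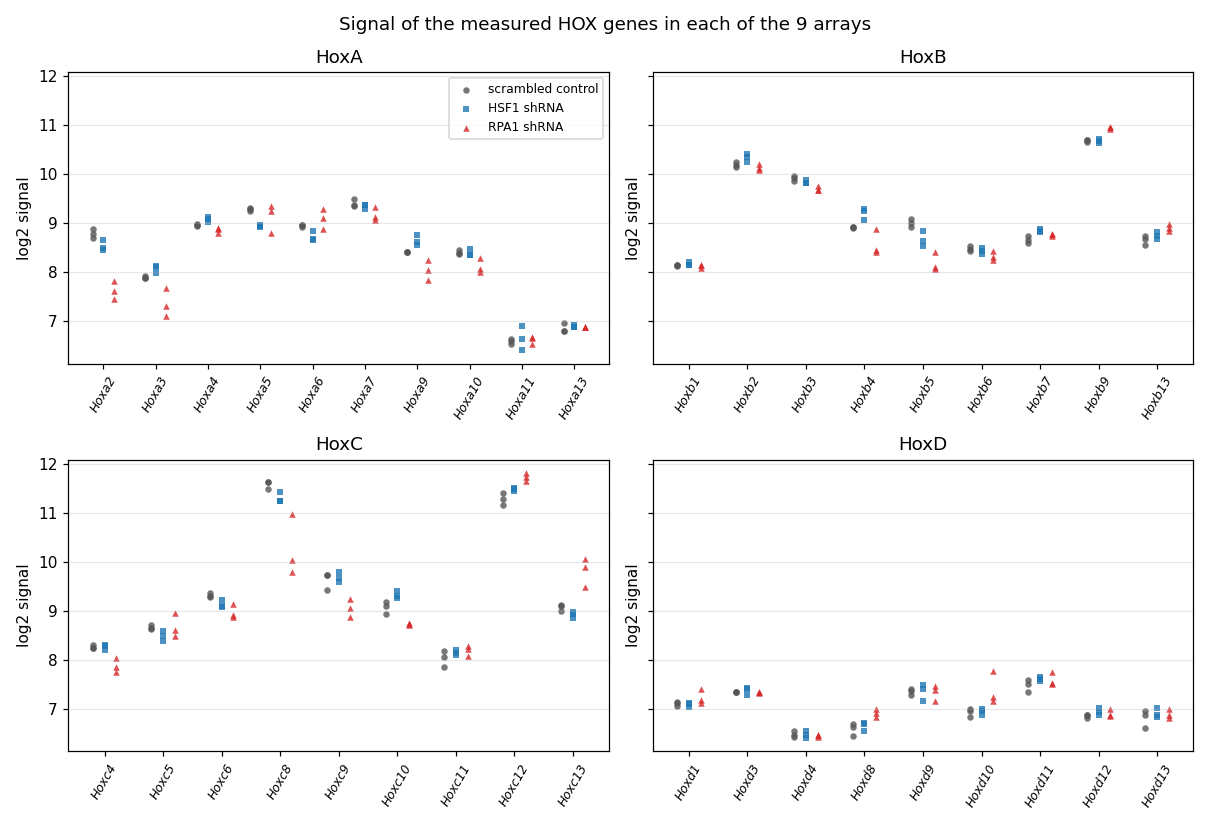
Log2 signal (y axis) of each measured HOX gene (x axis, in paralogue order, 1 panel per cluster) in the 3 scrambled control, 3 HSF1 shRNA and 3 RPA1 shRNA arrays, 1 point per array. HoxD genes lie between 6.41 and 7.77 in every array, while Hoxc8 and Hoxc12 reach above 11 in the control arrays.

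RPA1 shRNA against the control showed lower signal of many HoxA and HoxC genes and higher signal of the far posterior HoxC genes. Of the 37 HOX genes 12 fell and 6 rose (48.6% called), where 30.1% of all genes were called at a limma adjusted p under 0.05. The falls made up 32.4% of the HOX genes against 14.7% of all genes, and the rises 16.2% against 15.4%, so the share that fell stood above the background and the share that rose near it. Among the brighter genes, above the median over the 9 arrays, 12 of 19 HOX genes and 51.5% of all genes were called. The median log2 difference over the 37 was -0.02, beside 0.02 over all genes. None of the genes that fell had a paralogue number above 10, and none that rose had one below 8. Of the genes numbered above 10, however, Hoxa11, Hoxa13 and Hoxd11 to Hoxd13 had control means of only 6.59 to 7.47, below the median gene. Background was not measured, so whether a fall could show at such low signals is not known. These counts were read after the values were seen.

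In HoxA 5 of 10 genes fell (50%, beside 14.7% of all genes) and none rose (beside 15.4%). Hoxa2, the selector gene of the second pharyngeal arch, read 8.70, 8.88 and 8.78 in the control arrays and 7.45, 7.62 and 7.81 in the RPA1 shRNA arrays, a fall of 2.24-fold (log2 -1.16 ± 0.09, limma adjusted p = 2.9e-05, n = 3). All 3 RPA1 shRNA arrays lay below every control array. Hoxa3, needed for the thymus and parathyroid, read 7.87, 7.92 and 7.88 against 7.11, 7.30 and 7.67 (log2 -0.53 ± 0.12, adjusted p = 0.0071), again without overlap. The RPA1 shRNA array 3 was the one nearest to the control for both genes.

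Hoxa9, a gene of the thoracic and lumbar axis and of blood progenitors, read 8.41, 8.41 and 8.41 in the control and 7.83, 8.03 and 8.25 in the RPA1 shRNA arrays (log2 -0.38 ± 0.10, limma adjusted p = 0.016). Hoxa10, needed for lumbar identity and the uterus, read 8.45, 8.38 and 8.37 against 7.99, 8.05 and 8.29 (-0.29 ± 0.08, adjusted p = 0.018). The Hoxa7 arrays read 9.49, 9.34 and 9.37 against 9.13, 9.32 and 9.05 (-0.23 ± 0.07, adjusted p = 0.041). None of these 3 genes overlapped between the groups. The Hoxa10 call was lost without control array 1, RPA1 shRNA array 1 or RPA1 shRNA array 2 (adjusted p up to 0.07), and the Hoxa7 call without RPA1 shRNA array 1 or 3, any control array or any HSF1 shRNA array, with only the 6 arrays compared and with quantile scaling (up to 0.14).

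Between these falls lay HoxA genes that were not called. Hoxa4 read 8.95, 8.98 and 8.93 in the control and 8.87, 8.80 and 8.89 in the RPA1 shRNA arrays (-0.10 ± 0.05, limma adjusted p = 0.18). For Hoxa5, needed for the lung and trachea, the values were 9.31, 9.29 and 9.24 in the control and 9.24, 9.34 and 8.80 in the RPA1 shRNA arrays (-0.16 ± 0.12, adjusted p = 0.37), with array 3 below and array 2 above every control array. Hoxa6 read 8.96, 8.91 and 8.95 against 9.10, 9.28 and 8.88 (0.15 ± 0.09, adjusted p = 0.28), and without RPA1 shRNA array 3 it was called higher (0.25, adjusted p = 0.024). In RefSeq the Hoxa3 gene model overlaps those of Hoxa4, Hoxa5 and Hoxa6, so these rows come from overlapping genes. Hoxa11 and Hoxa13 stood at 0.03 ± 0.11 and 0.02 ± 0.06.

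In HoxB 2 of 9 genes fell and 2 rose (22.2% each, beside 14.7% and 15.4% of all genes). Hoxb5, which sets the position of the shoulder girdle, read 8.91, 9.0 and 9.07 in the control and 8.05, 8.09 and 8.40 in the RPA1 shRNA arrays, a fall of 1.76-fold (log2 -0.81 ± 0.11, limma adjusted p = 0.00042). Hoxb3 read 9.86, 9.96 and 9.91 against 9.68, 9.67 and 9.75 (-0.21 ± 0.05, adjusted p = 0.0082). Both genes were below every control array in all 3 RPA1 shRNA arrays. Hoxb4, known for the expansion of blood stem cells, overlaps the Hoxb3 gene model in RefSeq and read 8.91, 8.89 and 8.91 against 8.44, 8.40 and 8.88 (-0.33 ± 0.12, adjusted p = 0.059). It did not pass, but fell without RPA1 shRNA array 3 (-0.48, adjusted p = 0.00046), which lay within 0.03 of the control.

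The rises in HoxB came from its posterior end. Hoxb9, a gene of the rib cage, read 10.66, 10.69 and 10.70 in the control and 10.92, 10.95 and 10.95 in the RPA1 shRNA arrays (0.26 ± 0.05, limma adjusted p = 0.0019). Hoxb13, known from the prostate and tail, read 8.67, 8.73 and 8.55 against 8.90, 8.98 and 8.83 (0.25 ± 0.06, adjusted p = 0.015), and leaving out control array 3 or RPA1 shRNA array 2 ended that call (up to 0.061). Neither gene overlapped between the groups. Hoxb1, Hoxb2, Hoxb6 and Hoxb7 were not called, with log2 differences from -0.15 to 0.11.

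HoxC held both the largest fall and the largest rise of all HOX genes, with 5 of 9 genes lower and 2 higher. These were 55.6% and 22.2%, beside 14.7% and 15.4% of all genes. Hoxc8 read 11.62, 11.63 and 11.49 in the control arrays and 9.79, 10.03 and 10.97 in the RPA1 shRNA arrays, a fall of 2.49-fold (log2 -1.32 ± 0.24, limma adjusted p = 0.0027). The first and second RPA1 shRNA arrays lay far below the control and the third between them and the control. Without array 3 the difference was -1.67 (adjusted p = 2.6e-06). Its posterior neighbours fell as well: Hoxc9, which sets thoracic motor neuron identity, read 9.73, 9.72 and 9.43 against 8.87, 9.05 and 9.23 (-0.58 ± 0.11, adjusted p = 0.0029). Hoxc10, a lumbar gene, read 9.09, 9.18 and 8.93 against 8.70, 8.72 and 8.75 (-0.34 ± 0.07, adjusted p = 0.0042).

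At the anterior end of HoxC, Hoxc4 read 8.29, 8.24 and 8.23 in the control and 7.75, 7.84 and 8.04 in the RPA1 shRNA arrays (-0.38 ± 0.07, limma adjusted p = 0.0032). Hoxc6, a thoracic gene, read 9.29, 9.35 and 9.28 against 8.86, 9.14 and 8.92 (-0.33 ± 0.07, adjusted p = 0.0069). In these 5 HoxC genes every RPA1 shRNA array was below every control array. Hoxc5, which lies between Hoxc4 and Hoxc6, stood at 0.03 ± 0.11 (adjusted p = 0.88).

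Beyond Hoxc11, which stood at 0.16 ± 0.08 (adjusted p = 0.17), the direction was the opposite. Hoxc12 read 11.27, 11.40 and 11.16 in the control and 11.72, 11.65 and 11.81 in the RPA1 shRNA arrays (0.45 ± 0.07, limma adjusted p = 9e-04). Hoxc13, needed for hair and nails, read 9.09, 9.12 and 8.99 against 9.88, 10.06 and 9.48, a rise of 1.67-fold (log2 0.74 ± 0.12, adjusted p = 0.0016). All RPA1 shRNA arrays lay above all control arrays for both genes, and array 3 was the lowest of the 3 for Hoxc13 and the highest for Hoxc12.

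HoxD, the cluster with the lowest signals, had no falls and 2 rises among 9 genes (22.2% higher, beside 15.4% of all genes). Signal over background was not measured, so whether transcripts were detected at such low signals is not known. Hoxd8 read 6.69, 6.63 and 6.45 in the control and 6.91, 7.0 and 6.83 in the RPA1 shRNA arrays (0.32 ± 0.08, limma adjusted p = 0.01). Hoxd10, which patterns the hindlimb and lumbar motor neurons, read 6.96, 7.0 and 6.83 against 7.24, 7.77 and 7.15 (0.46 ± 0.14, adjusted p = 0.03). The groups did not overlap for either gene, but RPA1 shRNA array 2 set the size for Hoxd10, which was 0.27 (adjusted p = 0.023) without it. The Hoxd10 call was lost without any 1 control array, with only the 6 arrays compared and with quantile scaling (adjusted p up to 0.11). The other 7 HoxD genes differed by -0.02 to 0.14 and were not called.

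**Figure D2:**
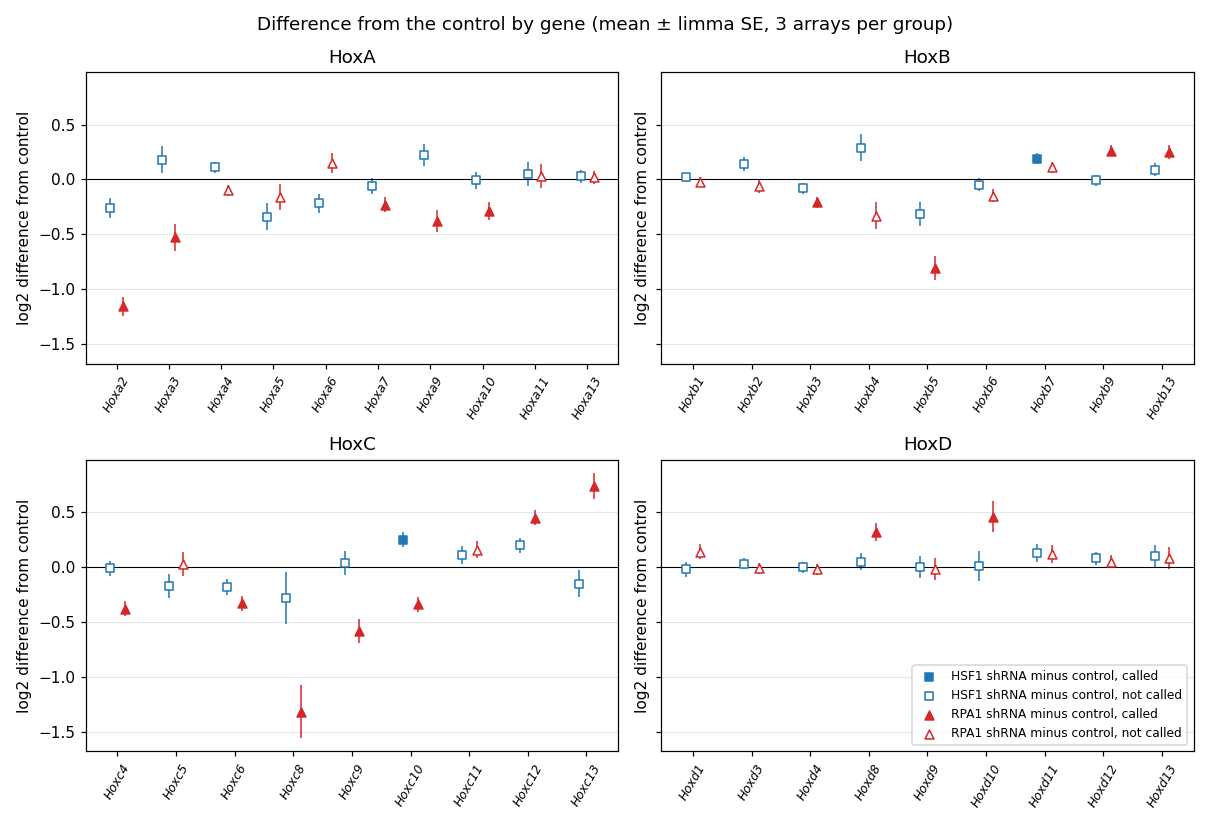
Log2 difference from the control (y axis, mean ± limma standard error, 3 arrays per group) of each HOX gene (x axis, in paralogue order, 1 panel per cluster) for HSF1 shRNA (squares) and RPA1 shRNA (triangles), with filled symbols for genes called at an adjusted p under 0.05. Under RPA1 shRNA HoxC runs from falls at Hoxc4 to Hoxc10 (except Hoxc5) to rises of 0.45 at Hoxc12 and 0.74 at Hoxc13.

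In all 21 of the 37 HOX genes (56.8%) had no overlap between RPA1 shRNA and control arrays, 7 higher and 14 lower, beside 41% of all genes (21.9% higher and 19.2% lower). Of the 18 calls 14 held in every alternative that tested the gene, and Hoxa7, Hoxa10, Hoxb13 and Hoxd10 did not. For 14 of the 18 called genes RPA1 shRNA array 3 was the array nearest to the control mean. Without it the counts were 7 rises and 12 falls, beside 36.3% of all genes called. Fibroblast markers gave 8 falls of 12 (66.7%, beside 14.7% of all genes) and no rise. The falls included the receptor genes Pdgfra (-1.70 ± 0.07, limma adjusted p = 1.5e-06) and Pdgfrb (-1.06 ± 0.08, adjusted p = 2.7e-05) and the collagen gene Col1a2 (-1.05 ± 0.12, adjusted p = 0.00022). S100a4 of this list was not called (0.45 ± 0.18, adjusted p = 0.09) but lay above every control array, at 10.51, 10.30 and 11.16. The mean log2 signal of the 12 fibroblast markers was 10.73 to 10.79 in the control arrays and 10.15 to 10.35 in the RPA1 shRNA arrays. The mean of the 7 neural markers was 8.24 to 8.38 and 8.50 to 8.70, with 4 of them higher (57.1%, beside 15.4% of all genes) and 1 lower (14.3%, beside 14.7%). The mean of the 6 blood markers was 6.77 to 6.90 and 7.26 to 7.34. Of these the macrophage genes Cd68 (2.06 ± 0.17, adjusted p = 2.8e-05) and Csf1r (0.35 ± 0.07, adjusted p = 0.0046) rose (33.3%, beside 15.4% of all genes). The other 4 were not called, among them Ptprc, the pan-blood marker, at 5.94, 6.05 and 5.90 in the control and 6.04, 6.05 and 6.18 in the RPA1 shRNA arrays. The means of the epithelial (7.67 to 7.70 and 7.76 to 7.84), muscle (7.53 to 7.60 and 7.69 to 7.71) and endothelial markers (6.84 to 6.87 and 6.87 to 6.98) were at or above the control as well. Their calls, all higher, were 1 of 7 (14.3%), 2 of 6 (33.3%) and 1 of 6 (16.7%) genes, beside 15.4% of all genes. The part of these markers in the HOX differences was not tested, and in a bulk sample fewer cells with a transcript and less of it per cell cannot be told apart.

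**Figure D3:**
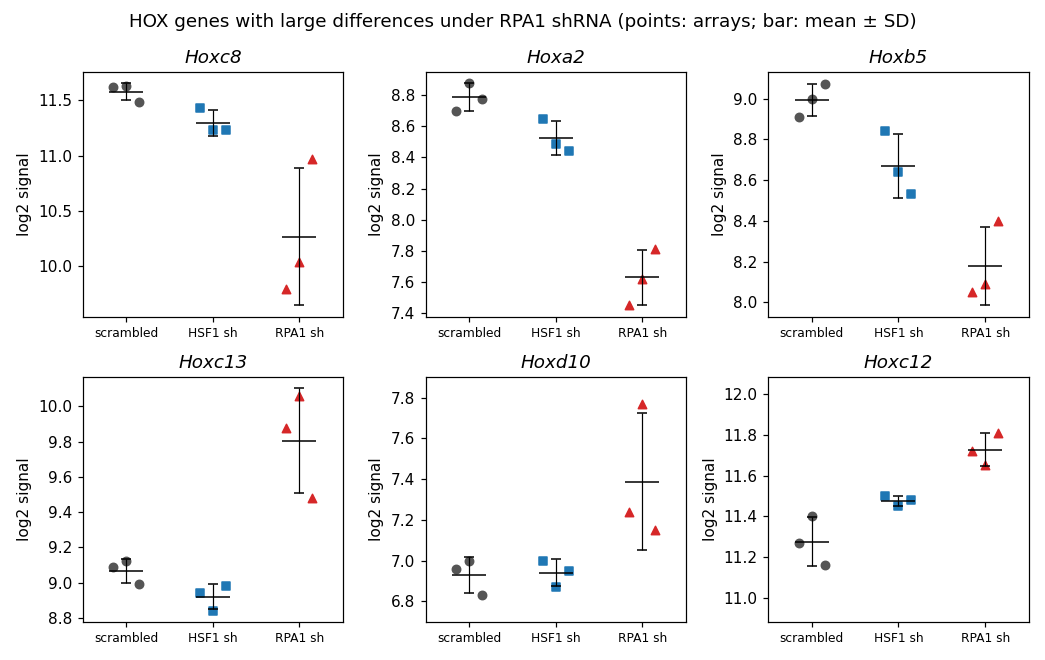
Log2 signal (y axis) in each array of the 3 groups (x axis) for 6 HOX genes, with points for arrays and a bar for the mean ± SD of 3 arrays. The RPA1 shRNA arrays lie below the control for Hoxc8, Hoxa2 and Hoxb5 and above it for Hoxc13, Hoxd10 and Hoxc12, and array 3 of Hoxc8 stands at 10.97 between the other 2 and the control.

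HSF1 shRNA against the control gave 2 calls among the HOX genes. Hoxb7 and Hoxc10 rose and no HOX gene fell, so 5.41% were called, where 16.1% of all genes were (9.89% higher and 6.21% lower). Hoxb7 read 8.74, 8.58 and 8.66 in the control and 8.88, 8.84 and 8.82 in the HSF1 shRNA arrays (0.19 ± 0.05, limma adjusted p = 0.04), and Hoxc10 9.09, 9.18 and 8.93 against 9.40, 9.25 and 9.29 (0.25 ± 0.07, adjusted p = 0.035). The groups did not overlap for either gene. The differences of all 37 ran from -0.34 to 0.29 with a median of 0.02, beside 0.04 over all genes. At an unadjusted p under 0.05 limma gave 12 of the 37 HOX genes and 5697 of all 19938 genes. The HSF1 shRNA and control arrays did not overlap for 15 HOX genes (40.5%), 7 higher and 8 lower, beside 37.9% of all genes (23.9% higher and 13.9% lower). Of the 12 fibroblast markers 5 fell, Pdgfra the most (-0.90 ± 0.07, adjusted p = 0.00011), and 1 rose, S100a4 (1.16 ± 0.18, adjusted p = 0.0027), and their mean signal was 10.57 to 10.70 in the HSF1 shRNA arrays. The other marker means lay above those of the control arrays without overlap, at 8.50 to 8.52 for neural markers (3 of 7 called, all higher), 7.83 to 7.89 for epithelial markers (1 of 7, higher) and 7.01 to 7.05 for blood markers (1 of 6, Csf1r, 0.27 ± 0.07, adjusted p = 0.032). Muscle markers were at 7.63 to 7.72 and endothelial markers at 6.92 to 6.98, with 1 of 6 called higher in each. The part of these markers was not tested.

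The HOX genes with the largest differences in their clusters under HSF1 shRNA did not pass. Hoxa5 read 8.94, 8.92 and 8.95 in the HSF1 shRNA arrays, all below the control (-0.34 ± 0.12, limma adjusted p = 0.077). Hoxb5 read 8.84, 8.64 and 8.53 (-0.32 ± 0.11, adjusted p = 0.073) and Hoxc8 11.43, 11.23 and 11.23 (-0.28 ± 0.24, adjusted p = 0.5), with no overlap either. In HoxD the largest was Hoxd11, at 7.58, 7.5 and 7.33 in the control and 7.56, 7.64 and 7.60 in the HSF1 shRNA arrays (0.13 ± 0.08, adjusted p = 0.36), which overlapped.

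This low count depended on the RPA1 shRNA arrays, which share the estimate of the spread. The median SD of the HOX genes was 0.057 over the control, 0.07 over the HSF1 shRNA and 0.137 over the RPA1 shRNA arrays, and 0.059 without RPA1 shRNA array 3. Over all genes these values were 0.057, 0.067, 0.089 and 0.055. Without RPA1 shRNA array 3 the count under HSF1 shRNA was 5 rises and 5 falls (27% of the HOX genes, beside 23.6% of all genes), and with only the 6 arrays compared 5 and 6, beside 22.7%. In both fits Hoxa2, Hoxa5, Hoxa6, Hoxb5 and Hoxc8 were called lower and Hoxa9 and Hoxb4 higher. The call of Hoxb7 was lost without control array 2 or 3, any HSF1 shRNA array or RPA1 shRNA array 1 and with quantile or median scaling. The call of Hoxc10 was lost without control array 1 or 3, any HSF1 shRNA array or RPA1 shRNA array 1. No HOX call was left without control array 3, HSF1 shRNA array 2 or 3, or RPA1 shRNA array 1, and without HSF1 shRNA array 1 a single HOX gene, Hoxb5, was called, lower. Over all genes 61.4% of the calls were higher, and 52%, 48.1% and 49.4% after quantile, median and loess scaling, and these scalings moved the median difference of all genes by less than 0.1.

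The 2 knockdowns were set side by side in the test of RPA1 shRNA against HSF1 shRNA, which called 18 HOX genes, 6 higher and 12 lower (48.6%, beside 24.4% of all genes). The 12 lower genes made up 32.4%, beside 14.7% of all genes, and the 6 higher 16.2%, beside 9.71%. With all genes 39.8% of the calls were higher, and 48.6%, 52.4% and 48.6% after quantile, median and loess scaling, while the HOX counts were 7 higher and 10 or 11 lower. Hoxa2 (-0.90 ± 0.09, limma adjusted p = 0.00029), Hoxc9 (-0.62 ± 0.11, adjusted p = 0.003), Hoxa9 (-0.59 ± 0.10, adjusted p = 0.0023) and Hoxb5 (-0.49 ± 0.11, adjusted p = 0.0091) were lower under RPA1 shRNA, and Hoxc13 (0.89 ± 0.12, adjusted p = 0.0011) and Hoxb9 (0.27 ± 0.05, adjusted p = 0.0026) higher. Against the control the same genes stood at -0.26 ± 0.09, 0.04 ± 0.11, 0.22 ± 0.10, -0.32 ± 0.11, -0.15 ± 0.12 and -0.01 ± 0.05 under HSF1 shRNA, in that order.

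For 6 HOX genes the control arrays lay between the knockdowns without overlap, a set read off after the values were seen. The share of all genes with this pattern was not counted. Hoxb4 read 9.29, 9.06 and 9.24 in the HSF1 shRNA arrays, above every control array, and 8.44, 8.40 and 8.88 in the RPA1 shRNA arrays, below every control array, and the knockdowns differed by -0.63 ± 0.12 (limma adjusted p = 0.0043). Hoxc10 read 9.40, 9.25 and 9.29 in the HSF1 shRNA arrays and differed by -0.59 ± 0.07 (adjusted p = 0.00046). Hoxa3 read 8.12, 7.98 and 8.11 in the HSF1 shRNA arrays and differed by -0.71 ± 0.12 (adjusted p = 0.0024). These genes, with Hoxa9 at 8.60, 8.54 and 8.75 and Hoxa4 at 9.08, 9.11 and 9.01 in the HSF1 shRNA arrays, were above the control under HSF1 shRNA and below it under RPA1 shRNA. Hoxa4 differed by -0.21 ± 0.05 (adjusted p = 0.013) between the knockdowns. Hoxc13 lay the other way, at 8.94, 8.84 and 8.98 in the HSF1 shRNA arrays and above the control under RPA1 shRNA. Of the 6 genes Hoxc10 alone passed against the control under HSF1 shRNA, and all but Hoxa4 and Hoxb4 passed under RPA1 shRNA. The groups did not overlap between the knockdowns for 22 of the 37 HOX genes (59.5%), 8 higher and 14 lower, beside 34.5% of all genes (14.1% higher and 20.5% lower).

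The remaining genes called between the knockdowns were Hoxa6, at 8.84, 8.67 and 8.65 under HSF1 shRNA (0.37 ± 0.09, limma adjusted p = 0.02), and Hoxb2, a gene of the hindbrain, at 10.14, 10.24 and 10.19 in the control, 10.41, 10.24 and 10.35 under HSF1 shRNA and 10.11, 10.07 and 10.20 under RPA1 shRNA (-0.20 ± 0.06, adjusted p = 0.034). With them came Hoxc4 (-0.37 ± 0.07, adjusted p = 0.0054), Hoxa10 (-0.28 ± 0.08, adjusted p = 0.028), Hoxc8 (-1.04 ± 0.24, adjusted p = 0.013), Hoxc12 (0.25 ± 0.07, adjusted p = 0.025), Hoxd8 (0.27 ± 0.08, adjusted p = 0.03) and Hoxd10 (0.45 ± 0.14, adjusted p = 0.04). Of the 18 calls 10 held in every alternative that tested the gene. The Hoxa4 call was lost without HSF1 shRNA array 2, that of Hoxc8 without HSF1 shRNA array 1, that of Hoxa6 without HSF1 shRNA array 2 or 3 or RPA1 shRNA array 1 or 2, and that of Hoxc12 without any HSF1 shRNA array or RPA1 shRNA array 1. Hoxd8 lost it without HSF1 shRNA array 1 or 2 or RPA1 shRNA array 1 or 2, and Hoxb2 without control array 3, HSF1 shRNA array 1 or 3 or RPA1 shRNA array 1 or 2. For Hoxa10 it was lost without any HSF1 shRNA array or RPA1 shRNA array 1 or 2, and for Hoxd10 without any control or HSF1 shRNA array or RPA1 shRNA array 1 (0.26 without RPA1 shRNA array 2). With only the 6 arrays compared the calls of Hoxa6, Hoxa10, Hoxb2, Hoxc8 and Hoxd10 were lost as well. Quantile scaling ended those of Hoxa4 and Hoxa10, median scaling those of Hoxa10 and Hoxb2, and loess scaling that of Hoxb2. The replicate number as a block ended those of Hoxb2 and Hoxc12. Without HSF1 shRNA array 2 or RPA1 shRNA array 1 the count of higher genes was 2, without HSF1 shRNA array 1 or 3 it was 3, and without RPA1 shRNA array 3 it was 9.

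Among the cofactors with which HOX proteins bind DNA, 4 of 9 measured genes fell and 1 rose in each knockdown. That is 44.4% lower, where all genes gave 6.21% (HSF1 shRNA) and 14.7% (RPA1 shRNA), and 11.1% higher, beside 9.89% and 15.4%. All 9 had control means above the median gene. Of the genes brighter than the median over the 9 arrays 31.9% and 51.5% were called, beside 55.6% of the cofactors in each knockdown. This list and those that follow were chosen with earlier results of these data known. Meis1, a TALE homeodomain cofactor of HOX proteins, read 10.37, 10.45 and 10.43 in the control, 9.54, 9.44 and 9.29 under HSF1 shRNA and 8.73, 8.54 and 9.02 under RPA1 shRNA. It fell by 0.99 ± 0.11 under HSF1 shRNA (limma adjusted p = 0.00052) and by 1.65 ± 0.11 under RPA1 shRNA (adjusted p = 1.1e-05), and the knockdowns differed by -0.66 ± 0.11 (adjusted p = 0.0025). Pknox2, a gene of the PREP family, read 9.32, 9.60 and 9.39 in the control, 8.99, 8.91 and 8.73 under HSF1 shRNA and 8.41, 8.45 and 8.72 under RPA1 shRNA, and fell in both (-0.56 ± 0.10, adjusted p = 0.0065, and -0.91 ± 0.10, adjusted p = 0.00019). Meis2 fell in both (-0.55 ± 0.09, adjusted p = 0.0044, and -0.41 ± 0.09, adjusted p = 0.0084). Pbx4 rose under HSF1 shRNA (0.23 ± 0.06, adjusted p = 0.032) and Meis3 under RPA1 shRNA (0.43 ± 0.06, adjusted p = 0.00078). The knockdowns share the control arrays.

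Polycomb genes, whose proteins keep HOX genes silent, gave 1 rise and 4 falls of 19 under HSF1 shRNA (26.3% called, beside 16.1% of all genes) and 3 rises and 6 falls under RPA1 shRNA (47.4%, beside 30.1%). Cbx2, a chromodomain subunit, read 10.85, 10.87 and 10.77 in the control, 9.97, 9.76 and 9.79 under HSF1 shRNA and 10.58, 10.65 and 10.30 under RPA1 shRNA, and fell by 0.99 ± 0.09 under HSF1 shRNA (limma adjusted p = 0.00026) and by 0.32 ± 0.09 under RPA1 shRNA (adjusted p = 0.028). The knockdowns differed by 0.67 ± 0.09 for it (adjusted p = 0.0011). Aebp2 (-0.35 ± 0.06, adjusted p = 0.0045, and -0.27 ± 0.06, adjusted p = 0.007) and Phc1 (-0.34 ± 0.07, adjusted p = 0.0092, and -0.37 ± 0.07, adjusted p = 0.0026) fell in both knockdowns. Mtf2 rose under HSF1 shRNA (0.28 ± 0.05, adjusted p = 0.0066) and fell under RPA1 shRNA (-0.17 ± 0.05, adjusted p = 0.037). Phc3 fell under HSF1 shRNA (-0.34 ± 0.07, adjusted p = 0.012). Under RPA1 shRNA Phf1 (-0.47 ± 0.07, adjusted p = 0.00079) and Cbx8 (-0.37 ± 0.07, adjusted p = 0.004) fell, and Phf19 (0.43 ± 0.06, adjusted p = 0.00058), Eed (0.39 ± 0.06, adjusted p = 0.0011) and Phc2 (0.21 ± 0.05, adjusted p = 0.01) rose. Ezh2, the histone methyltransferase of the complex, stood at -0.02 ± 0.04 and 0.01 ± 0.04 and was not called.

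Trithorax genes and other activators of HOX genes gave 1 fall of 11 under HSF1 shRNA, that of Ctcf, the insulator protein (-0.36 ± 0.08, limma adjusted p = 0.011), and 1 rise and 3 falls under RPA1 shRNA. The shares called were 9.09% and 36.4%, beside 16.1% and 30.1% of all genes. All 11 had control means above the median gene, and of the genes brighter than the median over the 9 arrays 31.9% and 51.5% were called. The H3K79 methyltransferase gene Dot1l rose (0.61 ± 0.08, adjusted p = 0.00034), while Kdm6a, an H3K27 demethylase gene (-0.36 ± 0.07, adjusted p = 0.0047), Psip1 (-0.34 ± 0.04, adjusted p = 0.00042) and Men1 (-0.31 ± 0.06, adjusted p = 0.0024) fell. Kmt2a, which encodes the MLL methyltransferase, stood at -0.14 ± 0.08 and -0.07 ± 0.08 and was not called.

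Retinoic acid switches on anterior HOX genes in the embryo, and of its 17 pathway genes 1 rose and 5 fell under HSF1 shRNA (35.3%, beside 16.1% of all genes) and 3 rose and 6 fell under RPA1 shRNA (52.9%, beside 30.1%). The receptor gene Rarg read 10.82, 10.79 and 10.71 in the control, 10.15, 10.05 and 10.04 under HSF1 shRNA and 10.69, 10.69 and 10.41 under RPA1 shRNA (-0.70 ± 0.08, limma adjusted p = 0.00057, and -0.18 ± 0.08, adjusted p = 0.12). Dhrs3, a retinal reductase gene, fell in both (-0.92 ± 0.15, adjusted p = 0.0032, and -0.81 ± 0.15, adjusted p = 0.0025), as did Stra6, the gene of the retinol uptake receptor (-0.61 ± 0.18, adjusted p = 0.044, and -0.54 ± 0.18, adjusted p = 0.045). The binding protein gene Crabp2 rose in both (0.55 ± 0.11, adjusted p = 0.0099, and 0.68 ± 0.11, adjusted p = 0.0014). Aldh1a1, a gene of retinoic acid synthesis, fell in both too (-0.61 ± 0.15, adjusted p = 0.022, and -0.72 ± 0.15, adjusted p = 0.0051). Under RPA1 shRNA Rdh10, the gene of the retinol dehydrogenase before that step, rose (0.53 ± 0.12, adjusted p = 0.0089), as did the binding protein gene Crabp1 (0.41 ± 0.07, adjusted p = 0.0016).

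Other regulators of the axial pattern gave 1 rise of 10 under HSF1 shRNA, that of Gdf11, a TGF-beta family ligand that switches on posterior HOX genes (0.24 ± 0.06, limma adjusted p = 0.031), and 2 rises and 2 falls under RPA1 shRNA. The shares called were 10% and 40%, beside 16.1% and 30.1% of all genes. Under RPA1 shRNA Gdf11 rose by 0.68 ± 0.06 (adjusted p = 6.1e-05) and Egr2, a hindbrain regulator, by 0.65 ± 0.18 (adjusted p = 0.022), while Bmp4 read 12.45, 12.49 and 12.54 in the control against 11.35, 11.14 and 11.89 and fell by 1.03 ± 0.15 (adjusted p = 0.00076). Gmnn, which encodes geminin, fell too (-0.27 ± 0.07, adjusted p = 0.012). The caudal genes Cdx1, Cdx2 and Cdx4 were not called in either comparison.

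Of 35 other positional transcription factors of mesenchyme 4 fell and none rose under HSF1 shRNA (11.4% called, beside 16.1% of all genes), and 11 fell and 3 rose under RPA1 shRNA (40%, beside 30.1%). The limb mesenchyme genes Prrx1 and Prrx2 fell under RPA1 shRNA, Prrx1 from 12.05, 12.09 and 12.02 to 10.74, 10.12 and 11.53 (-1.26 ± 0.27, limma adjusted p = 0.0061) and Prrx2 by 1.01 ± 0.13 (adjusted p = 0.00045). Emx2, a gene of the shoulder blade and kidney, fell by 0.97 ± 0.18 (adjusted p = 0.0029), and Tbx2 rose by 0.76 ± 0.08 (adjusted p = 9.8e-05), Alx1 by 0.39 ± 0.06 (adjusted p = 0.00062) and Msx2 by 0.26 ± 0.09 (adjusted p = 0.05). Zic1 fell under HSF1 shRNA (-0.49 ± 0.07, adjusted p = 0.0024) and under RPA1 shRNA (-0.41 ± 0.07, adjusted p = 0.0023). Dlx1 (-0.32 ± 0.06, adjusted p = 0.0066, and -0.44 ± 0.06, adjusted p = 0.00053) and Hand2 (-0.31 ± 0.05, adjusted p = 0.005, and -0.70 ± 0.05, adjusted p = 2.3e-05) fell in both as well.

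**Figure D4:**
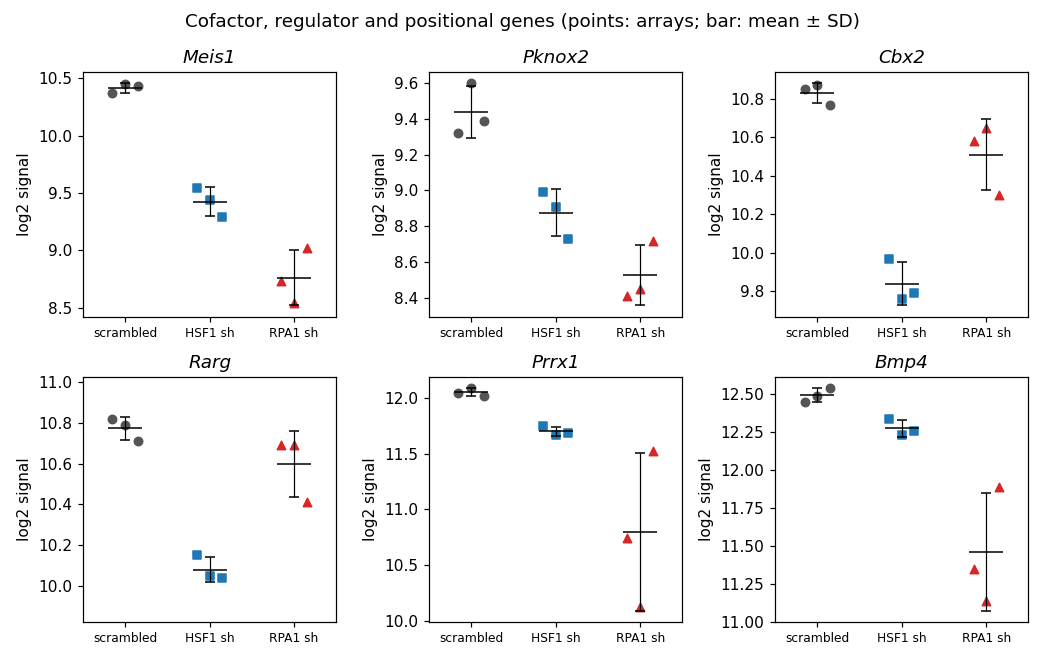
Log2 signal (y axis) in each array of the 3 groups (x axis) for the cofactor genes Meis1 and Pknox2, the Polycomb gene Cbx2, the retinoic acid receptor gene Rarg, the mesenchyme gene Prrx1 and the ligand gene Bmp4, with points for arrays and a bar for the mean ± SD of 3 arrays. Meis1 and Pknox2 are lower than the control in both knockdowns, Cbx2 and Rarg lowest under HSF1 shRNA, and Prrx1 and Bmp4 lowest under RPA1 shRNA.

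Among the genes in or beside the clusters that are no HOX genes, of 20 measured 1 rose and none fell under HSF1 shRNA (5%, beside 16.1% of all genes), and 1 rose and 2 fell under RPA1 shRNA (15%, beside 30.1% of all genes). Skap2, a neighbour of the HoxA cluster, fell under RPA1 shRNA (-0.62 ± 0.08, limma adjusted p = 0.00046), as did Calcoco2 (-0.23 ± 0.07, adjusted p = 0.033), and Ttll6 rose (0.39 ± 0.10, adjusted p = 0.019). Smug1 rose under HSF1 shRNA (0.39 ± 0.07, adjusted p = 0.004). The posterior neighbours Evx1 and Evx2 stood at 0.02 ± 0.07 and -0.01 ± 0.05 under RPA1 shRNA and were not called.

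The clusters also hold the microRNAs of the miR-10 and miR-196 families, which are known to bind HOX transcripts, Hoxc8 among the targets of miR-196. Their mature 5p forms are shown from RefSeq (GRCm38.p6), 5′ to 3′, with the seed (bases 2 to 8) in capitals, since members of a family share it.
miR-10a-5p, plus strand, chr11:96317186-96317208: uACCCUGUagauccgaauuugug
miR-10b-5p, plus strand, chr2:74726074-74726096: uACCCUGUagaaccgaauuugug
miR-196a-5p (from Mir196a-1), plus strand, chr11:96265187-96265208: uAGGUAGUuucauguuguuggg
miR-196b-5p, minus strand, chr6:52230129-52230150: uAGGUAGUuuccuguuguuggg
The array rows named for their genes were not called in any comparison. Under RPA1 shRNA the log2 differences were -0.48 ± 0.20 for Mir10a, -0.04 ± 0.14 for Mir10b, 0.10 ± 0.09 for Mir196a-1, -0.04 ± 0.07 for Mir196a-2 and -0.01 ± 0.06 for Mir196b. The Mir10a row read 4.23, 4.41 and 4.94 in the control and 3.79, 4.12 and 4.24 in the RPA1 shRNA arrays, which overlapped. Such rows may detect precursor or host transcripts, so they say nothing of the mature forms.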

How the data were processed

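The log2 signals were used as deposited, with a single value for each probe set on an array. RMA and Partek 6.5 are the tools in the submitters' processing notes. The log2 scale is not stated and was inferred from the values, whose array medians lay between 7.72 and 7.81. Array number limits the precision, at 3 per group, and signal over background was not measured. Of 35557 rows 21789 had 1 gene symbol in the platform annotation, 1621 several and 12147 none listed. Where a gene had several rows, that of the highest mean signal was kept, which gave 19938 genes.

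With R 4.3.3 and limma 3.58.1, a model with a mean for each group was fitted over the 9 arrays (residual degrees of freedom 6, prior 3.51), and p-values were adjusted over all genes by Benjamini-Hochberg within each of 3 contrasts. The tests are two-sided, and a call is an adjusted p under 0.05. Errors are limma standard errors for differences and the SD for levels, n = 3. An exact test of 3 against 3 arrays cannot give a p below 0.1. The procedure was also run on simulated data in which all groups shared the spread of a gene. The RPA1 shRNA arrays spread more than the others here, so that run does not cover this case. No filter on dim genes was used.

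HOX genes called in any contrast, or with the largest difference in their cluster, have their arrays named, and up to 3 called genes per direction come from the other lists. The members and lists were chosen with earlier results of these data known. RefSeq symbols and promoters were matched by symbol, and the build of the array annotation is not given in the sources used here.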

Additional observations from a re-analysis of the deposited data

How the results depend on the processing

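The alternatives were each array left out, only the 6 arrays compared, 3 scalings, brighter genes alone, 2 ways to treat rows of a gene, trend and robust moderation, array weights and the replicate number as a block. No HOX gene called in any comparison changed direction in any of them. Under RPA1 shRNA the 12 falls and 6 rises stayed within 1.5 times in all alternatives (falls 10 to 12 and rises 4 to 7 with an array left out). The widest were 14 falls and 9 rises with array weights, and 8 falls and 4 rises among the 19 brighter HOX genes. Under HSF1 shRNA the 2 rises and 0 falls became 5 and 6 with only the 6 arrays compared, 1 and 1 with quantile scaling, 1 and 4 with median scaling, 2 and 1 with loess, 4 and 5 with array weights and 3 and 2 among the brighter genes, and with an array left out both counts ran from 0 to 5. Between the knockdowns the counts with an array left out ran from 2 to 9 higher and 9 to 13 lower. Over all genes the calls with an array left out ran from 1145 to 2869 higher and 706 to 1827 lower under HSF1 shRNA, 2287 to 3691 and 2237 to 3554 under RPA1 shRNA, and 1269 to 2779 and 1899 to 3760 between the knockdowns. With array weights they were 3118 and 2195 under HSF1 shRNA, 4510 lower under RPA1 shRNA, and 3299 and 4627 between the knockdowns. The replicate numbers are shared by the groups but mark no pairing: deviations of same-numbered arrays correlated at -0.16 to 0.093, and an array correlated best with its own number in 7 of 18 cases. With the replicate block there were 0 HOX rises and 0 falls under HSF1 shRNA, 6 and 12 under RPA1 shRNA and 5 and 11 between the knockdowns. The 12 falls under RPA1 shRNA then held Hoxb4 (adjusted p = 0.045) in place of Hoxa7 (adjusted p = 0.066). The cause of the other changes was not tested.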

Other observations

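Antisense transcripts of the clusters lay outside the lists and were looked at after the HOX values were seen. Hoxaas2, an antisense transcript of HoxA, gave 8.54, 8.60 and 8.60 as its control values, 8.24, 8.17 and 8.02 under HSF1 shRNA and 7.51, 7.77 and 7.76 under RPA1 shRNA. It fell in both knockdowns, by 0.44 ± 0.08 under HSF1 shRNA (limma adjusted p = 0.0065) and by 0.90 ± 0.08 under RPA1 shRNA (adjusted p = 5.1e-05), and the knockdowns differed by -0.46 ± 0.08 (adjusted p = 0.0032). Its position within the cluster was not looked up here. Of the 10 measured HoxA genes 5 fell under RPA1 shRNA and none was called under HSF1 shRNA. Hoxa2 stood at -1.16 ± 0.09 under RPA1 shRNA and at -0.26 ± 0.09 under HSF1 shRNA (limma adjusted p = 0.097). Hoxa3 and Hoxa4 stood at -0.53 ± 0.12 and -0.10 ± 0.05 under RPA1 shRNA. Under HSF1 shRNA they lay above every control array (0.18 ± 0.12 and 0.11 ± 0.05). Hoxd3os1, an opposite-strand transcript of Hoxd3, rose under HSF1 shRNA (0.28 ± 0.07, adjusted p = 0.024) and was not called under RPA1 shRNA (0.06 ± 0.07, adjusted p = 0.59), while Hoxd3 was called in neither. A second row of Hoxd3os1 read 6.65, 6.85 and 6.69 in the control and 6.69, 6.67 and 6.70 in the HSF1 shRNA arrays, which overlapped.

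The row shared by Hoxb8 and Hoxb7 was in no test. Its control values were 8.61, 8.71 and 8.62, its values under HSF1 shRNA 8.70, 8.58 and 8.57, and those under RPA1 shRNA 8.25, 8.44 and 8.56. The RPA1 shRNA arrays lay below every control array, while the separate row of Hoxb7 read 8.78, 8.78 and 8.74 there, above every control array (0.11 ± 0.05, limma adjusted p = 0.15).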
